A study of Saccharomyces cerevisiae with 6 samples.

Results

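The genes described here are 36 ribosomal protein genes of the small subunit of the budding yeast ribosome, each with 1 annotated intron. They were taken from 6 tables of splice junctions as the ribosomal protein genes whose names begin with RPS, without RPS9A, RPS9B, RPS14A, RPS14B, RPS22B, RPS24A, RPS24B and RPS26A, and hold 36 of the 281 annotated introns in 271 genes. The tables come from 6 mRNA libraries of BY4741 cells grown in YPD to mid-log phase, 3 of a prp18Δupf1Δ strain (prp18Δ::kanMX6 with upf1Δ::HIS3MX6) and 3 of a upf1Δ strain (upf1Δ::HIS3MX6). Both strains therefore lack UPF1 and with it nonsense-mediated decay (NMD), the pathway that destroys mRNAs with a premature stop codon, so that mis-spliced RNAs can be seen, and no strain with UPF1 was compared here. Neither PRP18 nor UPF1 has an intron, and junction reads therefore cannot show that the genes are deleted.

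In background, budding yeast has lost most of its introns but kept them in most ribosomal protein genes, which are transcribed so heavily that their pre-mRNAs are the main load on the spliceosome of a growing cell. Most of these genes exist as a pair of paralogs, A and B, left by an ancient genome duplication, with nearly the same protein and quite different introns. Splicing removes an intron in a pair of reactions: an adenosine at the branch site attacks the 5′ splice site (5′SS), and the freed exon then attacks the 3′ splice site (3′SS), which is normally a YAG (Y is C or T). Prp18p acts with Slu7p in the second of these reactions.

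The 36 introns were uniform at their splice sites. The 5′SS was GTATGT in 27, GTACGT in 6 and GTATGA in 3, RPS6A among them, and the 3′SS was CAG in 17 and TAG in 19. The branch site, here and in all distances below, is the authors' prediction, the closest match to TACTAAC in the intron. It was TACTAAC in 34, AACTAAC in RPS21A and TACTAAA in RPS25B. Their lengths ran between 256 and 551 nt (median 399.5), and the branch adenosine lay a median of 36 nt from the 3′SS, within a range of 19 to 183 nt and the longest in RPS25B. In 29 genes the intron interrupts the coding sequence, and in RPS8A, RPS8B, RPS25A, RPS25B, RPS26B, RPS29A and RPS29B it lies in the leader.

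The sequences on which the results below turn are the stretches between the branch site and the 3′SS. They are written 5′ to 3′ from the R64 genome and end in the first bases of the next exon, with the branch site, the annotated 3′SS and the alternative 3′SSs in capitals. RPS10B (chrXIII:732831-732881, plus strand) and RPS10A (chrXV:867512-867592, plus strand) encode a protein of the head of the subunit and are shown because RPS10B had the highest alternative 3′SS use of all 36 genes, at an AAG and an ACG, while RPS10A has an ACG and a GAG side by side.
RPS10B: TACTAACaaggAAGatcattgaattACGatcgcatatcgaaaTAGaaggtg
RPS10A: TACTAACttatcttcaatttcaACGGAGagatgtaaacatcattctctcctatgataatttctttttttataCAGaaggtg
RPS16B (chrIV:307328-307380, minus strand), RPS0B (chrXII:242646-242686, plus strand) and RPS27A (chrXI:158928-158972, plus strand) are shown because an alternative site close to the branch site, an ACG, a TAT and a TAG, was used almost only in prp18Δupf1Δ.
RPS16B: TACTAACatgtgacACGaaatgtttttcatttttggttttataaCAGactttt
RPS0B: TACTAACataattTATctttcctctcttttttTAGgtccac
RPS27A: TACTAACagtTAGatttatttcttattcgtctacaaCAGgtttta
The remaining sequences are 2 paralog pairs. RPS19A (chrXV:92433-92481, minus strand) and RPS19B (chrXIV:62365-62412, minus strand) share a GAG that begins with the last base of the annotated 3′SS, so that the capitals of both sites run together.
RPS19A: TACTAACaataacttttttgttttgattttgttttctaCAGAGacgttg
RPS19B: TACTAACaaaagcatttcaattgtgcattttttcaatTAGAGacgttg
RPS18A (chrIV:1360354-1360410, plus strand) and RPS18B (chrXIII:223375-223426, minus strand) are the pair whose splicing changed differently between the strains, and each has an AAG soon after the branch site.
RPS18A: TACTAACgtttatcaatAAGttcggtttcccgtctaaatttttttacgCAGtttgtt
RPS18B: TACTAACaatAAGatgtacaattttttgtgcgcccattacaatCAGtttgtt

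The 36 annotated junctions were covered by 383412, 260132 and 228121 reads in prp18Δupf1Δ and by 419186, 430444 and 455812 reads in upf1Δ, which was 28.8 to 31.1% of all annotated junction reads of a library. Their unspliced reads, the mean of the reads crossing the intact 5′SS and 3′SS, summed to 20509, 29957.5 and 26305 in prp18Δupf1Δ and to 11261, 17493.5 and 17804.5 in upf1Δ. As a share of spliced plus unspliced reads, these were 5.08, 10.3 and 10.3% in prp18Δupf1Δ against 2.62, 3.91 and 3.76% in upf1Δ, and the strains did not overlap. In each strain replicate 1 was unlike the other 2 libraries. Between it and the other prp18Δupf1Δ libraries the members' annotated counts gave a chi-square of 277 and 288.4 per degree of freedom, against 11.64 between those others. In upf1Δ it was 286 and 317.6 for replicate 1 and 30.64 for the others. Splicing was also more complete in replicate 1 in both strains, so the main counts are also given without these libraries. Those fits rest on fewer and more similar libraries, and their p values cover only the spread between them.

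Splicing efficiency (SE), the annotated junction reads over annotated plus unspliced reads, fell in most of the 36 introns when Prp18p was absent. The median SE of the members was 95.7, 91.0 and 90.8% in prp18Δupf1Δ and 97.9, 96.7 and 97.2% in upf1Δ, with means of 92.5% ± 2.75 and 97.3% ± 0.591 (SD, n = 3 each). The libraries of the strains did not overlap, and a two-sided exact permutation test gave p = 0.1, the smallest that 3 libraries against 3 allow. By edgeR's quasi-likelihood test, the ratio of spliced to unspliced reads was lower in 30 of the 36 introns and higher in none, where 81.6% of all 272 introns tested were lower. The median log2 change of the members was −1.73, against −1.92 over all introns tested. The large subunit genes had a median of −1.51 with 42 of 58 lower, and genes outside the ribosomal protein class had −2.16 with 144 of 168 lower (55 of 58 and 158 of 168 without replicate 1 of both strains). Without replicate 1 of both strains, 35 of the 36 members were lower (94.1% of all introns tested).

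The SE values of the 3 prp18Δupf1Δ libraries lay below those of all 3 upf1Δ libraries in 31 of the 36 introns, where this held for 82.7% of all introns tested. The 14 genes for proteins of the head of the subunit had 10 lower and a median log2 change of −1.67, and the 22 genes for its body and platform had 20 lower and a median of −1.78. Without replicate 1 of both strains these counts were 13 and 22. The introns in the leader were lower in 4 of 7, with a median log2 change of −1.15, in 6 of 7 with the replicate number as a block, and in all 7 without replicate 1 of both strains.

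**Figure D1:**
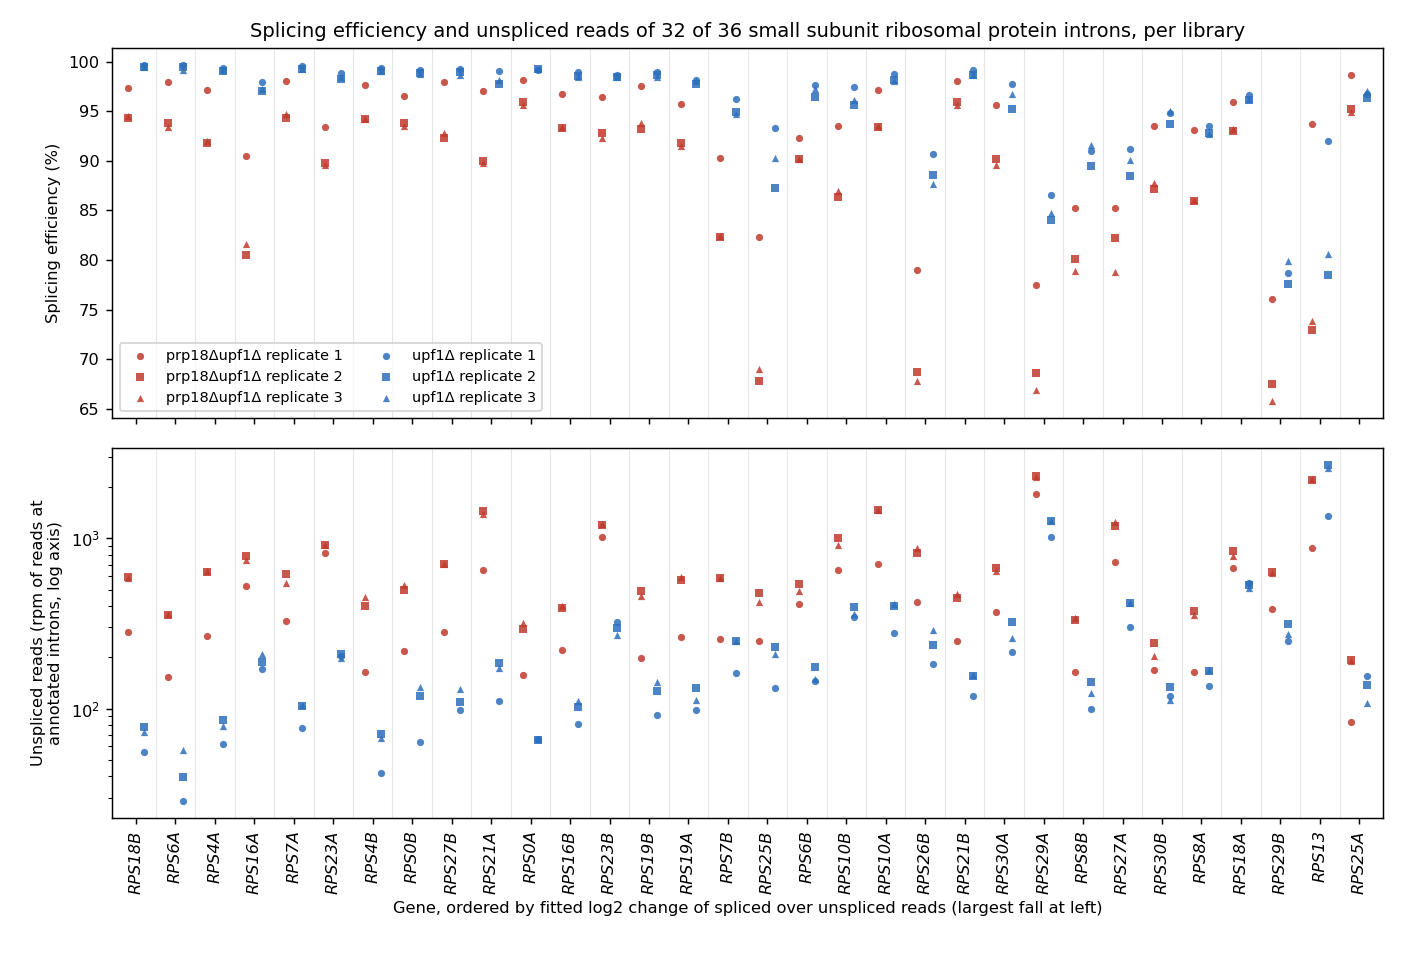
Each column is 1 of 32 of the 36 genes, with prp18Δupf1Δ libraries at the left (red) and upf1Δ libraries at the right (blue), 1 marker per replicate. The upper panel shows SE in percent and the lower panel unspliced reads in rpm on a log axis: genes at the left have the largest fitted fall of spliced over unspliced reads, and RPS13 and RPS25A at the right end have strains that overlap in both panels.

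The largest fall was in RPS18B, which encodes a protein of the head that reaches across to the large subunit. Its SE was 97.3, 94.3 and 94.5% in prp18Δupf1Δ against 99.6, 99.4 and 99.4% in upf1Δ. The log2 change of spliced over unspliced reads was −3.20 ± 0.42 (adjusted p = 0.000312), where the value after ± is the standard error of the fit, as in all log2 changes below. The next was RPS6A, whose protein is phosphorylated when TOR signalling is active. SE of RPS6A was 97.9, 93.8 and 93.4% in prp18Δupf1Δ against 99.7, 99.5 and 99.2% in upf1Δ (log2 change −3.14 ± 0.56, adjusted p = 0.0013). RPS4A, for a protein of the body, had 97.1, 91.8 and 92.0% in prp18Δupf1Δ against 99.4, 99.1 and 99.2% in upf1Δ (log2 change −2.99 ± 0.48, adjusted p = 0.00078). In these 3 genes the lowest SE of any library was still 91.8%, so the large change of the ratio came with a small loss of SE.

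RPS16A showed the largest loss in percentage points among the 6 genes with the largest log2 falls. Its protein sits in the head, where its tail reaches the tRNA in the P site. SE of RPS16A was 90.5, 80.5 and 81.6% in prp18Δupf1Δ against 98.0, 97.0 and 97.2% in upf1Δ (log2 change −2.77 ± 0.40, adjusted p = 0.00047). RPS7A, for a protein of the body, had 98.0, 94.4 and 94.7% in prp18Δupf1Δ against 99.6, 99.3 and 99.3% in upf1Δ (log2 change −2.77 ± 0.50, adjusted p = 0.00133). RPS23A, whose protein lines the decoding centre, had 93.4, 89.8 and 89.6% in prp18Δupf1Δ against 98.8, 98.3 and 98.4% in upf1Δ (log2 change −2.70 ± 0.34, adjusted p = 0.000259). None of these 6 genes had overlapping strains. Some other members lost more percentage points with a smaller log2 change. Mean SE of RPS25B was 73.0% in prp18Δupf1Δ against 90.3% in upf1Δ (log2 change −1.78), and that of RPS26B 71.9% against 89.0% (log2 change −1.65).

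At the other end, 6 introns did not pass the test, and 5 of them are given here. RPS25A, whose protein is known from its role in translation from viral internal ribosome entry sites, had an SE of 98.6, 95.2 and 94.96% in prp18Δupf1Δ and 96.7, 96.3 and 97.1% in upf1Δ (log2 change −0.00 ± 0.62, adjusted p = 0.999). Replicates 2 and 3 of prp18Δupf1Δ were the lowest of the 6 libraries and its replicate 1 the highest.

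RPS13, the only member without a paralog, differed more among libraries of a strain than between strains. Its SE was 93.7, 72.9 and 73.9% in prp18Δupf1Δ and 92.0, 78.5 and 80.6% in upf1Δ (log2 change −0.24 ± 0.76, adjusted p = 0.769). In both strains replicate 1 was the high one. RPS29B had 76.0, 67.5 and 65.8% in prp18Δupf1Δ against 78.7, 77.6 and 79.9% in upf1Δ (log2 change −0.67 ± 0.28, adjusted p = 0.052). RPS18A had 95.9, 93.0 and 93.2% in prp18Δupf1Δ against 96.7, 96.1 and 96.3% in upf1Δ (log2 change −0.70 ± 0.32, adjusted p = 0.0712). RPS8A had 93.1, 86.0 and 86.1% in prp18Δupf1Δ against 93.5, 92.9 and 92.7% in upf1Δ (log2 change −0.74 ± 0.36, adjusted p = 0.081). In RPS29B and RPS18A the strains did not overlap, and in RPS8A replicate 1 of prp18Δupf1Δ lay among the upf1Δ libraries.

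With the replicate number as a block, RPS8A (adjusted p = 0.00415), RPS18A (adjusted p = 0.0111) and RPS29B (adjusted p = 0.00292) passed as lower, for 33 of the 36 members, where 90.8% of all introns tested were lower. Without replicate 1 of both strains these 3 passed too, as did RPS13 (log2 change −0.50, adjusted p = 1.41e-08) and RPS25A (log2 change −0.61, adjusted p = 3.32e-05). That fit keeps only the more similar libraries, so its p values cover only the spread between those. With all libraries RPS13 and RPS25A did not pass, and their sign depended on which library was left out.

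Of the 4 genes with the least complete splicing in upf1Δ, RPS29B was at 78.7% ± 1.2, RPS13 at 83.7% ± 7.27 and RPS29A at 85.1% ± 1.30 (mean SE, SD, n = 3). Their prp18Δupf1Δ means were 69.8% ± 5.48, 80.2% ± 11.7 and 71.0% ± 5.66 in the same order. RPS29A and RPS29B encode a small zinc-binding protein of the head. SE of RPS29A was 77.5, 68.6 and 66.9% in prp18Δupf1Δ against 86.6, 84.1 and 84.7% in upf1Δ (log2 change −1.21 ± 0.31, adjusted p = 0.00726). The other 23 introns called lower had log2 changes between −2.49 (RPS4B) and −0.95 (RPS30B).

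Among the members, introns that were spliced most completely in upf1Δ had the larger falls. Across the 36 introns the mean SE in upf1Δ and the log2 change gave Pearson's r = −0.59 and Spearman's rho = −0.76. Both measures share the upf1Δ reads, so this is a description and not a test. The length of the intron (r = 0.06), the distance of the branch site from the 3′SS (r = −0.05) and the number of U in the tract before the 3′SS (r = −0.03) showed no such relation over the same 36 introns. Introns with CAG had a median log2 change of −1.78 (14 of 17 lower, and 17 without replicate 1 of both strains) and introns with TAG one of −1.65 (16 of 19 lower, and 18).

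Unspliced reads rose in parallel. Scaled to the reads of all intron-containing genes and given in rpm (reads per 1000000 such reads), unspliced reads were higher in prp18Δupf1Δ in 32 of the 36 members by edgeR's quasi-likelihood test and lower in none, where 79.0% of all introns tested were higher. The median log2 change of the members was 1.53, against 1.73 over all introns tested. RPS21A, whose protein contacts that of RPS0, had 649, 1444 and 1384 rpm of unspliced reads in prp18Δupf1Δ against 111, 184 and 172 in upf1Δ (log2 change 2.89 ± 0.35, adjusted p = 0.000179). The lowest prp18Δupf1Δ library was still above every upf1Δ library. RPS18B had 283, 595 and 585 in prp18Δupf1Δ against 56.0, 78.5 and 73.0 in upf1Δ (log2 change 2.82 ± 0.34, adjusted p = 0.000179). RPS6A had 153, 356 and 359 in prp18Δupf1Δ against 28.8, 39.6 and 57.1 in upf1Δ (log2 change 2.79 ± 0.42, adjusted p = 0.000407). RPS4A had 268, 631 and 642 in prp18Δupf1Δ against 61.7, 85.9 and 78.9 in upf1Δ (log2 change 2.76 ± 0.37, adjusted p = 0.000248). These 4 genes carried between 6.80 and 7.43 times as many unspliced reads in prp18Δupf1Δ.

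Of the members 4 did not pass, with RPS13 and RPS25A among them. RPS13 had the most unspliced reads of all members in upf1Δ, with 875, 2199 and 2221 rpm in prp18Δupf1Δ and 1358, 2711 and 2592 in upf1Δ (log2 change −0.33 ± 0.37, adjusted p = 0.423). Each of its prp18Δupf1Δ libraries was below the upf1Δ library of the same number.

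The level of the transcripts, spliced plus unspliced reads, changed far less. Relative to all intron-containing genes it was higher in 3 members (RPS21A, RPS27A, RPS29B) and lower in 4 (RPS16A, RPS7B, RPS25B, RPS18B), where 16.2% of all introns tested were higher and 11.0% lower. The median log2 change of the members was −0.12. RPS21A had 22251, 14423 and 13602 rpm in prp18Δupf1Δ against 11246, 8269 and 9130 in upf1Δ (log2 change 0.81 ± 0.22, adjusted p = 0.0324). The lowest prp18Δupf1Δ value exceeded the highest upf1Δ value. RPS27A, for a zinc-finger protein of the platform, had 4923, 6650 and 5893 in prp18Δupf1Δ against 3401, 3586 and 4235 in upf1Δ (log2 change 0.64 ± 0.15, adjusted p = 0.0175). RPS29B had 1605, 1958 and 1838 in prp18Δupf1Δ against 1171, 1403 and 1359 in upf1Δ (log2 change 0.46 ± 0.13, adjusted p = 0.0399).

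Of the genes that were lower, RPS16A had 5524, 4057 and 4046 rpm in prp18Δupf1Δ against 8485, 6259 and 7568 in upf1Δ (log2 change −0.71 ± 0.17, adjusted p = 0.0219). RPS7B had 2640, 3318 and 3349 in prp18Δupf1Δ against 4289, 4869 and 4699 in upf1Δ (log2 change −0.57 ± 0.12, adjusted p = 0.0144). Neither gene had overlapping strains. RPS25B was lower by a log2 change of −0.48 ± 0.11 (adjusted p = 0.0219) and RPS18B by −0.39 ± 0.11 (adjusted p = 0.0394). These calls rest on which libraries and terms enter the fit: with the replicate block 4 members were higher and 15 lower (30.1% and 28.3% of all introns tested), and without replicate 1 of both strains 7 were higher and 21 lower (40.4% and 33.8%).

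Paralogs A and B could be compared in 17 pairs, all members except RPS13 and RPS26B, whose partner is not among these genes. Each comparison is within a library and was fitted together with all 45 ribosomal protein pairs. In prp18Δupf1Δ the ratio of spliced to unspliced reads differed between A and B in 7 pairs, 5 with A higher and 2 with B higher, where 55.6% of the 45 pairs differed. In upf1Δ it differed in 8 pairs, 6 with A higher and 2 with B higher, where 57.8% differed. A was the more completely spliced copy in both strains in 5 pairs, among them RPS7, RPS10 and RPS25, and B was in RPS27. With the replicate block 12 pairs differed in prp18Δupf1Δ and 11 in upf1Δ (77.8% and 80.0% of the 45), and without replicate 1 of both strains 15 and 15 (93.3% and 95.6%). Junction reads lie in exons, which are similar between paralogs. Over the first 90 nt of the second exon, compared position by position without alignment, the copies were identical at 23.3 to 98.9% of positions (median 92.2%). RPS25 and RPS29 were lowest. Their introns lie in the leader, where a difference in length would lower this value, so it does not show that these exons are unlike. Where the best alignments of the aligners lay at different loci with equal scores, one aligner's was picked at random by the authors.

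The change between the strains differed between paralogs in 1 of the 17 pairs, RPS18, where 6.67% of all 45 pairs differed. SE of RPS18A minus RPS18B was −1.41, −1.28 and −1.30 percentage points in prp18Δupf1Δ and −2.97, −3.28 and −3.15 in upf1Δ. The libraries of the strains did not overlap. In upf1Δ the ratio of spliced to unspliced reads was lower in A than in B by a log2 difference of −2.92 (adjusted p = 3.57e-06). In prp18Δupf1Δ that difference was −0.42 (adjusted p = 0.349). The change of A minus the change of B was 2.50 ± 0.56 (adjusted p = 0.00368), since RPS18B fell by 3.20 on the log2 scale and RPS18A had −0.70. The sequences printed above for RPS18A and RPS18B share their 3′SS and the exon after it, and differ in most of the stretch before it.

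With the replicate block 6 pairs differed in their change (33.3% of the 45), RPS18 among them. A changed less than B in RPS25 (difference 1.78, adjusted p = 0.121 without the block and 0.0311 with it) and RPS27 (1.38, adjusted p = 0.218 and 0.0285). B changed less than A in RPS6 (−1.37, adjusted p = 0.218 and 0.00762) and RPS7 (−0.97, adjusted p = 0.416 and 0.0285). Without replicate 1 of both strains 11 pairs differed, where 71.1% of all pairs did.

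In RPS25 the fitted log2 change was −0.00 in A, against −1.78 in B. SE of RPS25A minus RPS25B was 16.3, 27.5 and 25.95 percentage points in prp18Δupf1Δ and 3.46, 9.06 and 6.82 in upf1Δ. Every prp18Δupf1Δ library showed a wider gap than every upf1Δ library. The predicted branch site of RPS25B, TACTAAA, lies 183 nt from its 3′SS. That of RPS25A is the usual TACTAAC and lies at 32 nt. In RPS27 the order was turned, with A minus B at −12.7, −10.0 and −14.0 in prp18Δupf1Δ and −8.08, −10.5 and −8.50 in upf1Δ, and here the libraries overlapped. RPS10 and RPS19 were the pairs with the most equal changes, with differences of 0.05 ± 0.62 and 0.09 ± 0.62 on the log2 scale, and these errors leave room for differences in either direction.

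**Figure D2:**
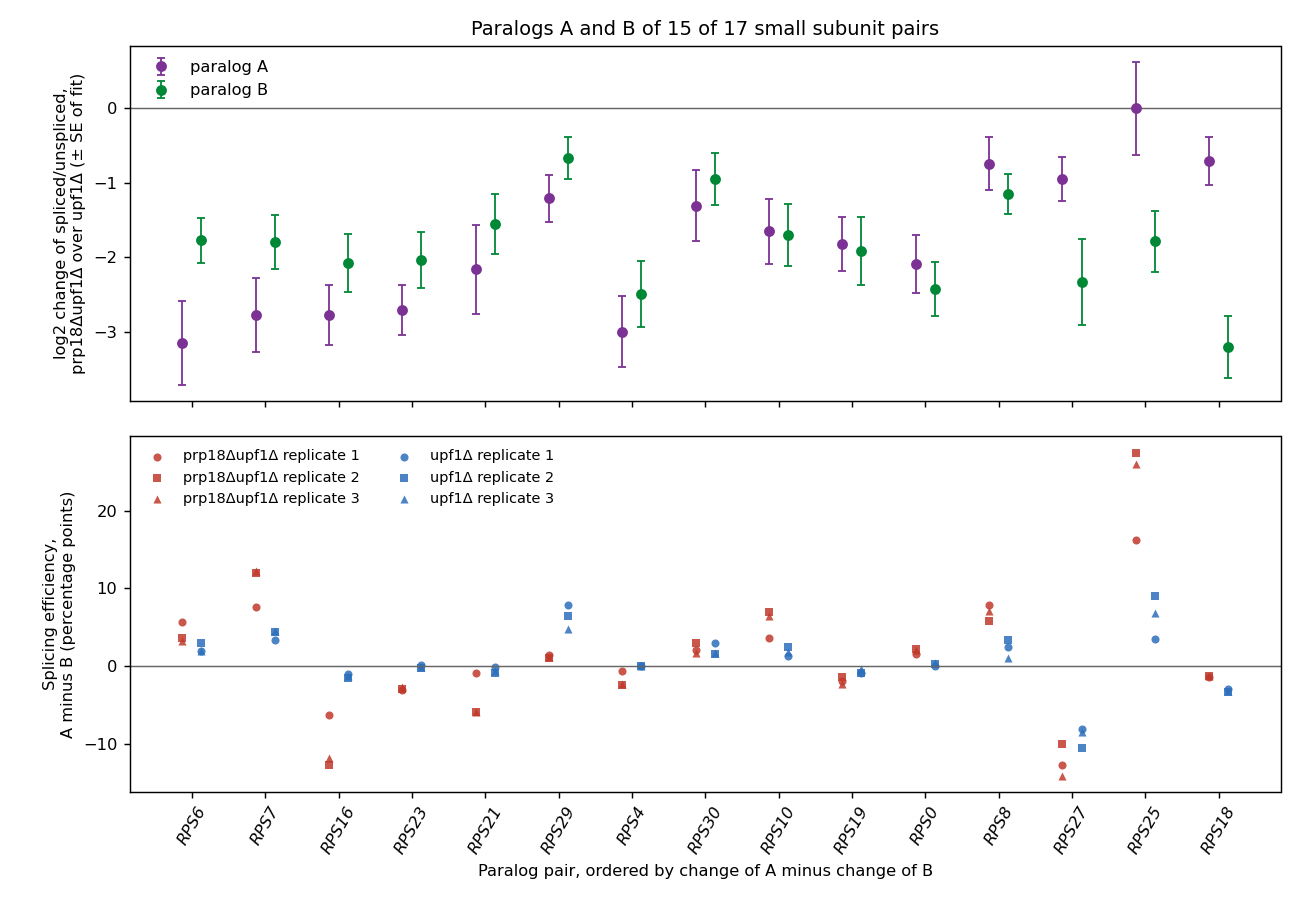
Upper panel: fitted log2 change of spliced over unspliced reads, prp18Δupf1Δ over upf1Δ, for paralogs A (purple, left) and B (green, right) of 15 of the 17 pairs, with bars for the standard error of the fit. Lower panel: SE of A minus SE of B in percentage points in each library, prp18Δupf1Δ at the left of each pair and upf1Δ at the right; RPS25 shows the widest gaps in prp18Δupf1Δ, and RPS18 is the pair at the right end, where A has −0.70 and B −3.20.

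Junctions other than the annotated one were found in 34 of the 36 introns after the filters on overhangs, mismatches and read number, 198 in all. RPS8A and RPS30B had none. Of the 198, 116 in 30 introns used the annotated 5′SS with another 3′SS, 37 used another 5′SS with the annotated 3′SS, and 45 changed both ends, of which 30 had the length of the annotated intron. Together they were rare: alternative 3′SSs made up 0.447% ± 0.0212 of the spliced reads of the members in prp18Δupf1Δ and 0.233% ± 0.00611 in upf1Δ, and alternative 5′SSs 0.108% ± 0.0105 in prp18Δupf1Δ and 0.135% ± 0.0111 in upf1Δ (SD, n = 3 each). RPS10B carried much of the first difference, and without it alternative 3′SSs were 0.275% ± 0.0203 in prp18Δupf1Δ and 0.220% ± 0.0072 in upf1Δ. The same shares for alternative 3′SSs were 0.197% and 0.131% in large subunit genes and 2.76% and 1.23% outside the ribosomal protein class, in prp18Δupf1Δ and in upf1Δ.

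The use of a junction is given as FAnS, its reads over those of the annotated junction of the same intron. By edgeR's quasi-likelihood test, FAnS of 28 of the 116 alternative 3′SSs was higher in prp18Δupf1Δ and that of 16 was lower, where 32.0% of all 562 alternative 3′SSs tested were higher and 7.65% lower. Of the 37 alternative 5′SSs, none was higher and 12 were lower, where 2.23% of 179 were higher and 26.3% lower. Of the 45 junctions with both ends changed 1 was higher and none lower, where 1.40% of 143 were higher and 3.50% lower. Many of the 45 had both ends moved by a few nt and were found by the aligner BBMap alone. An example is a junction of RPS21A moved by 3 nt at each end (100% BBMap alone). What the aligner adds to these counts was not tested. A junction was higher in 16 and lower in 20 of the 34 members that had any, and 11 had both, where 52.6% of all 232 introns with a junction had one that was higher and 29.7% one that was lower. In simulated data this fit called too many unchanged junctions, with small p values more common where reads were few, so the calls on few reads are the least firm. By DESeq2 18 alternative 3′SSs were higher and 9 lower, and without replicate 1 of both strains 15 were higher and 10 lower, with 6 alternative 5′SSs lower. Shares over all alternative sites were not taken under these settings, so these counts cannot be set against all introns. Summed over its alternative 3′SSs, an intron had a share of spliced reads that was higher without overlap of the strains in 12 of the 30 members with such sites, lower in 9 and overlapping in 9, where 50.5% of all 206 introns with such sites were higher and 13.1% lower.

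The calls are given here by the last bases of the site, as counts with no test between the classes. Among sites ending in G after a base other than A (BG, where B is C, G or T), 14 of 39 were higher and 1 was lower, where 44.2% and 1.28% of all such sites tested were. Of the GAG sites 3 of 4 were higher and none lower (84.2% and 0.00% of all GAG sites). YAG sites, the class of the annotated 3′SSs, were higher in 3 of 17 and lower in 7 (17.6% and 15.2% of all). AAG sites were higher in 4 of 27 and lower in 5 (25.2% and 11.8% of all). Sites ending in HAT (H is A, C or T) were higher in 4 of 17 and lower in 2 (32.4% and 5.88% of all), and 12 sites with other ends were lower in 1 and higher in none (6.25% of all each way). Of the 14 sites at most 14 nt from the branch adenosine assigned to them, 9 were higher and 3 lower, where 56.5% and 6.48% of all sites so near were. That adenosine was assigned per site, in the best match within that junction's own intron, and is not always the annotated one. Of the 3 lower, the AAG of RPS7A at −343 counts as 13 nt from such a match. The annotated branch site of RPS7A lies 32 nt from its 3′SS, downstream of this AAG. Upstream of the annotated 3′SS 20 of 65 sites were higher and 10 lower (41.8% and 7.88% of all), and downstream of it 8 of 51 were higher and 6 lower (21.5% and 7.41% of all). The members' shares of rises were thus near those of all introns or below them in most classes. Their shares of falls lay above those of all introns in every class of last bases but GAG, and over all 116 sites (13.8% against 7.65%). The widest gap was in YAG sites (41.2% against 15.2%), and some of these shares rest on 1 or 2 sites. The comparison holds for the edgeR fit on all libraries alone. By DESeq2 9 of the 116 were lower and without replicate 1 of both strains 10, and the shares of all sites were not taken there. What read depth adds to the difference was not tested.

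**Figure D3:**
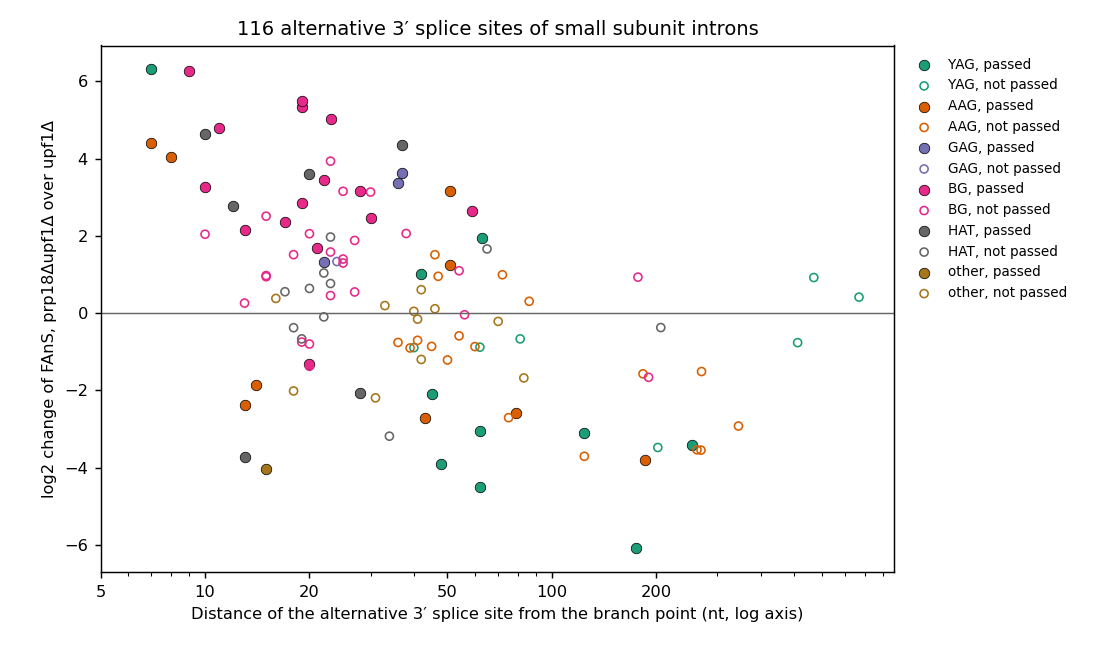
Each point is 1 of 116 alternative 3′SSs, placed by its distance from the branch point assigned to it (nt, log axis) and its log2 change of FAnS, prp18Δupf1Δ over upf1Δ. Points are coloured by the last bases of the site and filled where it passed the test. The assigned branch point is not always that of the annotated intron. The 9 of 14 sites within 14 nt of the branch point that were higher are the filled points at the upper left.

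The highest use of an alternative 3′SS was in RPS10B, at both sites capitalised in its sequence. The AAG at −31 from the annotated 3′SS, 8 nt from the branch adenosine, had 482, 241 and 198 reads in prp18Δupf1Δ against 43, 19 and 37 in upf1Δ. Its FAnS was 4.08, 3.42 and 3.28% in prp18Δupf1Δ and 0.254, 0.142 and 0.260% in upf1Δ (log2 change 4.03 ± 0.31, adjusted p = 1.44e-17). The ACG at −17 had 320, 203 and 175 reads in prp18Δupf1Δ against 38, 33 and 44 in upf1Δ, and an FAnS of 2.83% ± 0.105 and 0.260% ± 0.0441 (log2 change 3.45 ± 0.30, adjusted p = 3.28e-15). No library of a strain came near those of the other at either site. Of the reads at the AAG 86.0% were found by the aligner BBMap alone, against 1.28% at the ACG, and what this adds to the AAG count was not tested. A further site of RPS10B, a CAT at −26 between those just described, moved the other way with 2 reads in prp18Δupf1Δ and 56 in upf1Δ (log2 change −3.73, adjusted p = 6.33e-05).

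In RPS10A, the paralog, 3 neighbouring sites behaved differently. The GAG at −47 had 339 reads in prp18Δupf1Δ and 175 in upf1Δ (log2 change 1.31, adjusted p = 0.00369 by edgeR and 0.055 by DESeq2). The ACG at −50 had 13 reads in prp18Δupf1Δ and none in upf1Δ, at least 5.56-fold higher when upf1Δ is set to a floor of 3 reads over the strain (adjusted p = 0.00112, and 0.0829 without replicate 1 of both strains). The CGG at −49, which lies within the capitals of the RPS10A sequence, had 75 reads in prp18Δupf1Δ and 237 in upf1Δ (log2 change −1.33, adjusted p = 0.00551 by edgeR and 0.0567 by DESeq2). BBMap alone found 75.4% of the reads at the GAG, 6.67% at the ACG and 100% at the CGG. The same floor is used for all sites without a read in a strain. It takes the reads of the other strain as they were counted, and the lower limit of the 95% counting interval of the ratio was smaller, 3.91 for this ACG.

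Several sites close to the branch point were used almost only in prp18Δupf1Δ. The ACG of RPS16B, 11 nt from the branch adenosine, had 86, 34 and 28 reads in prp18Δupf1Δ against 3, 1 and 4 in upf1Δ, with an FAnS of 0.709% ± 0.301 and 0.0243% ± 0.0135 (log2 change 4.80 ± 0.47, adjusted p = 2.59e-13). The TAT of RPS0B, whose protein is needed for assembly of the subunit, lies 10 nt from the branch adenosine and had 56, 31 and 26 reads in prp18Δupf1Δ against 2, 2 and 4 in upf1Δ (log2 change 4.65 ± 0.50, adjusted p = 6.25e-12). In both genes replicate 1 of prp18Δupf1Δ was the highest, and all 3 libraries were above all upf1Δ libraries.

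Other sites had no read in upf1Δ. The TAG of RPS27A, 7 nt from the branch adenosine, had 8, 13 and 10 reads in prp18Δupf1Δ and was at least 9.77-fold higher there (adjusted p = 8.18e-06). This site is a YAG like the annotated one, and much nearer to the branch site. Of the other sites with no upf1Δ read among the largest rises by fitted log2 change, the GTG of RPS19B at −15 had 7, 0 and 2 reads in prp18Δupf1Δ (at least 4.95-fold, adjusted p = 0.00435). The ATG of RPS26B at −10 had 3, 5 and 0 (at least 3.86-fold, adjusted p = 0.00867). Both rest on fewer than 3 libraries, and neither passed without replicate 1 of both strains (adjusted p = 0.277 and 0.138). A junction of RPS10A with both ends moved by 1 nt had 4, 2 and 4 reads in prp18Δupf1Δ and none in upf1Δ (at least 4.27-fold, adjusted p = 0.00387, and 0.0858 without replicate 1 of both strains).

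A site in the next exon rose in both paralogs of RPS19. RPS19A and RPS19B encode a protein of the head that is needed to mature the rRNA of the subunit, and their human counterpart is mutated in Diamond-Blackfan anaemia. The GAG at 2 nt past the annotated site of RPS19B had 74, 52 and 51 reads in prp18Δupf1Δ against 8, 13 and 7 in upf1Δ, with an FAnS of 0.731% ± 0.0279 and 0.0703% ± 0.0223 (log2 change 3.37 ± 0.37, adjusted p = 1.57e-11). The GAG at the same place in RPS19A had 97 reads in prp18Δupf1Δ and 9 in upf1Δ (log2 change 3.63, adjusted p = 2.33e-09). Use of this site shortens the message by 2 nt and so shifts the reading frame.

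Over all pairs, 22 of the 111 alternative 3′SSs made up 11 positions, in 8 pairs, that lay at one distance from the annotated site in both paralogs. A rise in both copies was seen at 2 of the 11, the RPS19 GAG among them, and a fall in both at none. The share over all ribosomal protein pairs was not taken, so this count has nothing to be set against. Taken singly, 32.0% of all 562 alternative 3′SSs tested were higher and 7.65% lower, and 84.2% of all GAG sites were higher.

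**Figure D4:**
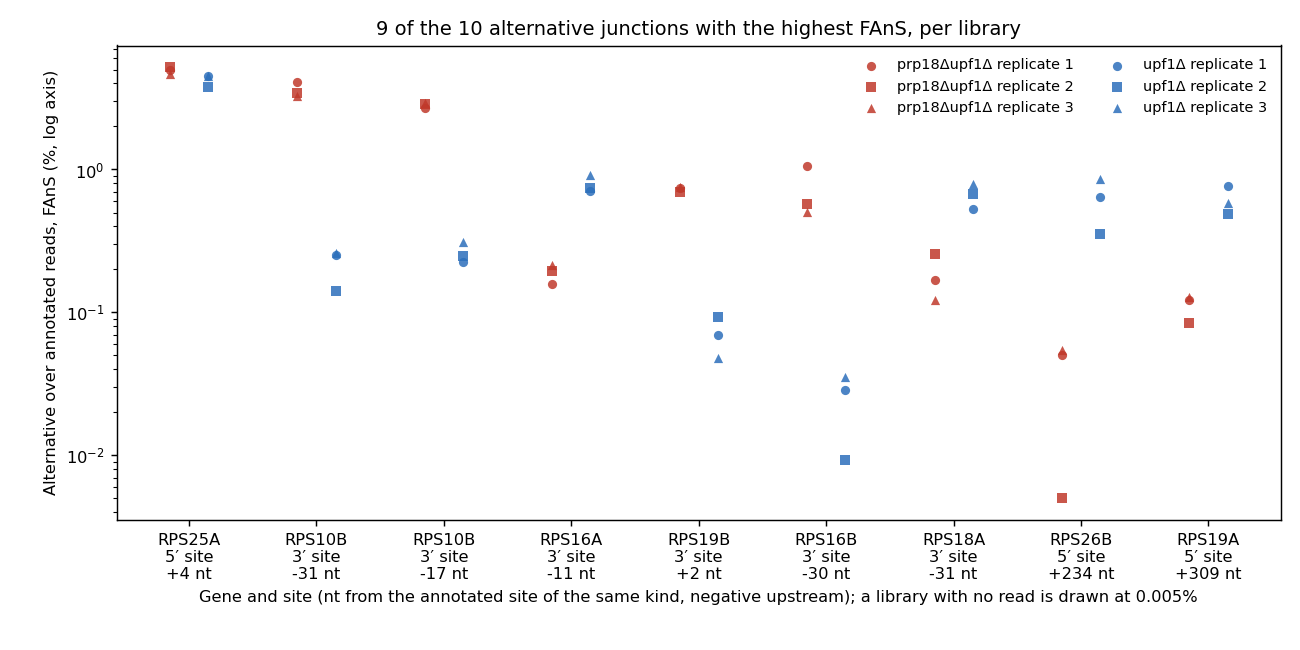
FAnS in percent on a log axis for 9 of the 10 alternative junctions of the members with the highest mean FAnS in either strain, prp18Δupf1Δ libraries at the left of each column (red) and upf1Δ libraries at the right (blue). RPS10B, RPS19B and RPS16B 3′SSs are higher in prp18Δupf1Δ without overlap, RPS16A, RPS18A, RPS26B and RPS19A sites are lower, and RPS25A at the left passed no test.

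Other junctions were used less in prp18Δupf1Δ. The AAG of RPS18A at −31, 14 nt from the branch adenosine, had 34, 32 and 13 reads in prp18Δupf1Δ against 111, 137 and 168 in upf1Δ (FAnS 0.183% ± 0.0684 and 0.668% ± 0.133, log2 change −1.87 ± 0.37, adjusted p = 4.54e-05). The CAT of RPS16A at −11 had 10, 7 and 7 reads in prp18Δupf1Δ against 77, 69 and 108 in upf1Δ (FAnS 0.189% ± 0.0288 and 0.788% ± 0.112, log2 change −2.08 ± 0.36, adjusted p = 3.01e-06). BBMap alone found 84.4% of the reads at this RPS18A site and 100% of those at this RPS16A site, and the part of the aligner in these falls was not tested. The AAG of RPS18B, 7 nt from its branch adenosine, had 2, 0 and 2 reads in prp18Δupf1Δ and none in upf1Δ (at least 2.40-fold, adjusted p = 0.0445), so the AAG sites of this pair were called in opposite directions, the RPS18B call on 4 reads (lower 95% counting limit 1.19) and lost with the replicate block (adjusted p = 0.0828) and without replicate 1 of both strains (adjusted p = 0.291).

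Ranked by the fitted log2 change, the largest falls were at sites with no read in prp18Δupf1Δ, where the size of the fall is not measured. A CAG of RPS0B at 146 nt past the annotated 3′SS had no read in prp18Δupf1Δ against 15, 13 and 19 in upf1Δ (at least 8.31-fold lower, adjusted p = 1.95e-05). A TAG of RPS6B at −256 had none against 4, 5 and 3 (at least 2.73-fold lower, adjusted p = 0.0116), and a TAA of RPS0A at −11 had none against 1, 3 and 5 (at least 1.99-fold lower, adjusted p = 0.0337, and 0.0837 with the replicate block). At the 5′ end, a GTACTG of RPS8B at 180 nt past the annotated 5′SS had none against 3, 5 and 3 (at least 2.69-fold lower, adjusted p = 0.0126), and a GTTGCT of RPS27A at 154 nt had none against 2, 2 and 4 (at least 2.82-fold lower, adjusted p = 0.015). All of these were listed in each upf1Δ library. Without replicate 1 of both strains, the RPS0B site passed (adjusted p = 0.0126) and the other 4 did not (adjusted p between 0.0852 and 0.141).

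Among alternative 5′SSs, a GTAGAG of RPS26B at 234 nt had 1, 0 and 1 reads in prp18Δupf1Δ against 15, 10 and 28 in upf1Δ, a ratio of 0.0547 with a 95% counting interval of 0.00645 to 0.207 (adjusted p = 2.33e-05). RPS26B encodes a protein near the mRNA exit. A GTAATG of RPS19A at 309 nt had 9, 6 and 8 reads in prp18Δupf1Δ against 52, 44 and 53 in upf1Δ (FAnS 0.111% ± 0.0236 and 0.612% ± 0.144, log2 change −2.42 ± 0.37, adjusted p = 2.55e-07). Both sites lie deep inside the intron, and their use removes only its last part. The junction with the highest FAnS of all members differed from these: the GTATCT of RPS25A, 4 nt past the annotated 5′SS, had 385, 222 and 163 reads in prp18Δupf1Δ and 272, 211 and 259 in upf1Δ. Its FAnS was 5.00, 5.20 and 4.64% in prp18Δupf1Δ and 4.49, 3.77 and 4.50% in upf1Δ (log2 change 0.22 ± 0.21, adjusted p = 0.471), so the strains did not overlap but the difference did not pass the test.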

How the data were processed

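Adapters were removed by the authors with cutadapt 1.18, and both STAR 2.7.0d and BBMap were used for alignment to the R64 genome, and COMPASS took the best alignment of each read. The authors deposited junction reads as raw counts per library, with no normalization. The deposited unspliced reads are an estimated count, the authors' mean over the intact 5′SS and 3′SS. The deposited SE is a fraction and the deposited FAnS a ratio of these, made by the authors, and both followed from the counts in every entry checked here. Total sequencing depth was not used.

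The filters on alternative junctions were applied here: overhangs without mismatch of 10 bp or more on the upstream and 40 bp or more on the downstream side, at least 50% of reads without mismatch within 10 bp, and at least 6 gapped reads over the 6 libraries. Introns needed 10 reads in all and 1 in every library. Each test was the quasi-likelihood test of edgeR 4.0.16 (R 4.3.3) on 2 counts per library, or 4 for a paralog pair, with a term for each library. The unspliced value multiplied by 2, the reads over both sites, entered these fits. Levels were tested with TMM scaling on spliced plus unspliced reads. The fits ran on 272 introns, 884 alternative junctions and 45 pairs, with Benjamini-Hochberg adjustment over each and a threshold of 0.05, and were tested on simulated data, where the fits of alternative junctions and of pairs called more unchanged entries than the threshold allows. DESeq2 1.42.0 and limma 3.58.1 gave alternatives.

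The members, gene lists and tests were chosen with earlier results of these data known. Genes were named by rule: the 6 largest and 6 smallest changes of annotated splicing, the 4 lowest SE in upf1Δ, pairs whose change differed, the 10 junctions with the highest FAnS, the 6 largest rises and falls, and the 4 largest level changes each way. Sites of RPS10A, RPS19A, RPS18B and RPS0B, the CAT of RPS10B, the mean SE of RPS25B and RPS26B and the pairs RPS10 and RPS19 were named after their values were seen. A few members are held in all counts but are not reported by name here.

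Same-numbered libraries deviated together (correlations of 0.583, 0.305 and 0.377 over 272 introns for replicates 1, 2 and 3). Replicates 2 and 3 correlated as well when crossed (0.342 and 0.369). These values set replicate 1 apart and do not show pairing by number for replicates 2 and 3, which the replicate block assumes. The labels do not say whether the replicates are separate cultures, so a p value here covers only how far these libraries differ, which may be technical.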

Additional observations from a re-analysis of the deposited data

How the results depend on the processing

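The fall of annotated splicing and the rise of unspliced reads kept their counts within 1.5 times under every alternative run. The difference of the median SE between the strains was −4.77 percentage points, with a range of −6.36 to −3.94 when 1 library was left out, −5.15 for the pooled SE and −6.06 without replicate 1 of both strains. The number of members lower was 26 to 34 when 1 library was left out, and that of members with more unspliced reads 26 to 34. Shares over all introns were not taken when 1 library was left out.

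Counts with few members moved more. For alternative sites, shares over all introns were not taken under these settings. Where no share is given in this section or in the results for a count of members or pairs, it was not taken either. Shifts of such counts cannot be told apart from shifts over all introns or pairs. Alternative 3′SSs higher in prp18Δupf1Δ (28) were 18 by DESeq2, 15 without replicate 1 of both strains and 20 to 26 when 1 library was left out. Those lower (16) were 9, 10 and 10 to 14 under the same settings, the 10 without prp18Δupf1Δ replicate 1. Alternative 5′SSs lower (12) were 6 without replicate 1 of both strains and 7 to 13 when 1 library was left out, the 7 without prp18Δupf1Δ replicate 2. Members with a higher transcript level (3) were 7 without replicate 1 of both strains and 0 to 3 when 1 library was left out, the 0 without upf1Δ replicate 2. Those with a lower level (4) were 8 with DESeq2 size factors, 2 with library size alone, 21 without replicate 1 of both strains and 0 to 11 when 1 library was left out. Leaving out prp18Δupf1Δ replicate 1 gave the 11, and leaving out its replicate 2 or 3 gave 0.

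Pairs whose change differed (1) were 2 when the fit held small subunit pairs alone, 11 without replicate 1 of both strains, and 1 to 6 when 1 library was left out, the 6 without prp18Δupf1Δ replicate 1. Pairs with A and B different in prp18Δupf1Δ (7) were 12 with the replicate block, 15 without replicate 1 of both strains and 6 to 10 when 1 library was left out. In upf1Δ (8) they were 15 and 5 to 13, the 13 without prp18Δupf1Δ replicate 1 and the 5 without upf1Δ replicate 2 or 3. The cause of these shifts was not tested.

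The replicate block gave 15 members with a lower transcript level and 6 pairs with a different change. It gave 33 members lower in annotated splicing (90.8% of all introns tested), 33 with more unspliced reads, and 23 alternative 3′SSs higher and 13 lower. Beside the pairs named above, the block moved no other count run with it by over 1.5 times.

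Changes of sign were seen in values near 0 that did not pass the test with all libraries. The log2 change of RPS25A in annotated splicing was 0.011 with the replicate block, 0.000478 by DESeq2, 0.023 by limma, and −0.61 to 0.36 when 1 library was left out, the −0.61 without prp18Δupf1Δ replicate 1, where it passed the test. That of RPS13 was −1.005 to 0.27 when 1 library was left out.

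Fits with the unspliced reads of the 5′SS or the 3′SS alone were not run, since the tables used here give their mean. Depth limits the alternative junctions, since many have fewer than 10 reads in a strain, and a strain without a read allows up to 3.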
